A study of Mus musculus with 20 samples.

Results

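The nuclear genes for subunits of the oxidative phosphorylation machinery were followed in microglia of mThy1-α-synuclein mice and their wild-type littermates. Members were chosen by gene symbol alone, as the rows whose names begin with Nduf (a, b, c, s, v or ab, followed by a number), Sdha to Sdhd, Uqcr, Cox4 to Cox8 or Atp5. This gave 85 of the 24062 genes in the table, of which 38 belonged to complex I by symbol, 4 to complex II, 8 to complex III, 18 to complex IV and 17 to complex V. The symbol rule also took in 8 tissue-restricted isoforms or paralogs and 3 genes for associated proteins that are not subunits, so 74 members were standard subunits. Nuclear subunit genes with other symbols, such as Cyc1 of complex III, were left out by the rule. The complex IV subunit gene Ndufa4, which carries a complex I name, was counted under its name.

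Oxidative phosphorylation takes place in the inner mitochondrial membrane. Complexes I and II pass electrons from NADH and succinate to ubiquinone, complex III passes them to cytochrome c, and complex IV passes them to oxygen. Complexes I, III and IV pump protons while doing so, and complex V, the ATP synthase, uses the returning protons to make ATP. The catalytic subunits of complexes I, III and IV are in part encoded by mitochondrial DNA, which was not analysed here, whereas the nuclear genes supply the remaining catalytic subunits and all of the small accessory subunits. In microglia the balance between oxidative phosphorylation and glycolysis is known to shift with activation.

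All mice were male, on the B6D2F1/J background, and each library came from the whole brain of 1 mouse. The 7-month groups held 6 mThy1-α-synuclein (7H) and 4 wild-type (7W) mice, and the 10-month groups held 5 mThy1-α-synuclein (10H) and 5 wild-type (10W) mice. mThy1 mice, labelled HEM, carried an X-linked transgene that drives human α-synuclein from the murine Thy-1 promoter, a promoter active mainly in neurons. The labels give the cells as selected with IBA1 beads and the methods give CD11b beads, and both proteins mark microglia. Between 33404096 and 77806399 reads fell on genes in each mouse. Thy1, whose sequence is carried in part by the transgene, had 392 to 1298 normalised reads in 7H against 17.7 to 47.6 in 7W, and 1117 to 1741 in 10H against 9.41 to 32.4 in 10W, as labelled. Microglial markers were abundant in every mouse, with P2ry12 between 203983 and 384337. Markers of border macrophages, monocytes and neutrophils were also present in every mouse, as given below, so the libraries did not hold microglia alone. In a bulk library, fewer cells of a type and less RNA per cell cannot be told apart. The 2 ages were separate cohorts with separately scaled values, so age cannot be told apart from cohort.

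Sequences are shown for the genes on which the results turn, and come from RefSeq promoters of build GRCm38.p6 (250 bases before to 50 after the annotated start). Cox7a2l and Atp5g2 were the members that passed the test of a genotype difference changing with age, Atp5h was the other member called at 7 months under every setting tried, and Sdhb, a catalytic subunit gene of complex II, is shown because it had the highest log2 fold change of the standard subunits at 7 months. Capitals mark matches on either strand to 5 motifs: GCGCATGC (the core of the NRF1 site), CCGGAAG (an ETS family site), GGGCGG (the GC box), CCAAT and TATAAA.
Cox7a2l promoter, chr17:83514284-83514583, minus strand: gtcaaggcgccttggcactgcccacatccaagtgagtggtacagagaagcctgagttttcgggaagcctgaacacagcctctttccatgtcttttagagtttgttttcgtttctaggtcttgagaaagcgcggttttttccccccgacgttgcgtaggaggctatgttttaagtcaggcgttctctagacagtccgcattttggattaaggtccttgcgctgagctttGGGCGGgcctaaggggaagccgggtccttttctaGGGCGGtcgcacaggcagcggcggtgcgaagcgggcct
Atp5g2 promoter, chr15:102670998-102671297, minus strand: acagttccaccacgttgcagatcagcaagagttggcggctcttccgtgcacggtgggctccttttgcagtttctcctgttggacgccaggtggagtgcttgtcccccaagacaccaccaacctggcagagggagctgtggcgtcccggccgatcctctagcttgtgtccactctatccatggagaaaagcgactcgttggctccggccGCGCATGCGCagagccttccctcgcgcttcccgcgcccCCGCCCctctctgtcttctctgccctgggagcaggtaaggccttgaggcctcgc
Atp5h promoter, chr11:115419870-115420169, minus strand: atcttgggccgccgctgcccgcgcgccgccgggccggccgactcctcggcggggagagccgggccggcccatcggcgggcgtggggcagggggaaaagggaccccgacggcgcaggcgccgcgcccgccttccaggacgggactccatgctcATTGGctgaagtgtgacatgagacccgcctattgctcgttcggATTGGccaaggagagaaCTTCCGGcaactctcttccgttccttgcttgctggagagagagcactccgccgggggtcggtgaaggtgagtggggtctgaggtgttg
Sdhb promoter, chr4:140961021-140961320, plus strand: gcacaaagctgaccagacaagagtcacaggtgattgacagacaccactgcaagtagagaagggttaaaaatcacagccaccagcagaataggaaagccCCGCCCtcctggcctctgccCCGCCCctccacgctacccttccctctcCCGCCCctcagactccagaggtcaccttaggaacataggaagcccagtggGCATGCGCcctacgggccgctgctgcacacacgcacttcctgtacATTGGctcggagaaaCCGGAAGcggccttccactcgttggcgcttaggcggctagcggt

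The Cox7a2l promoter held 2 GC boxes, which lay 22 bases before and 12 bases after the annotated start. In Atp5g2, 2 overlapping NRF1 core matches, 1 on each strand of a palindrome, lay 42 and 40 bases before the start, and 1 GC box lay 4 bases before it. Atp5h carried 2 CCAAT boxes, 98 and 55 bases before the start, and 1 ETS site at 38 bases before it. The Sdhb promoter held 3 GC boxes, 1 NRF1 core, 1 CCAAT box and 1 ETS site. Promoters of 70 of the 85 members were matched. The NRF1 core was found in 10 of them (14.3%) against 2.80% of all 27025 genes with a promoter, the ETS site in 15 (21.4%) against 9.12%, the GC box in 29 (41.4%) against 35.9%, CCAAT in 31 (44.3%) against 37.9%, and TATAAA in 7 (10.0%) against 14.2%. These are matches of letters within 300 bases and not measured binding sites. For Cox7a2l and Atp5g2 the whole promoter lies inside the GENCODE gene span given below, so RefSeq and GENCODE place the start differently.

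At 7 months most members had lower means in mThy1 mice, and few passed the test. Of 79 members tested, 74 had a lower mean log2 level in 7H than in 7W, whereas 49.8% of all 13887 tested genes did. The median log2 fold change over the members was -0.19, against 0.0009 over all tested genes. Differences were small, and 8 members passed an adjusted p of 0.05 (limma on log2(value + 1), Benjamini-Hochberg over all tested genes), all of them lower. They were Cox7a2l, Atp5h, Atp5g2, Ndufa7, Cox6c, Cox4i1, Cox7a2 and Atp5e. Over all tested genes 4.93% passed in either direction and 2.70% passed as lower. At an unadjusted p under 0.05 there were 38 members, against 21.3% of all tested genes. In 9 members every mThy1 mouse lay below every wild-type mouse, against 3.97% of all tested genes.

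The number of calls depended on single mice, while the sign of the median did not. Cox7a2l and Atp5h were called under all 18 alternative settings, and the other 6 calls were each lost without 7W replicate 1 and without 7W replicate 3. Without 7H replicate 1, 5 or 6 the count was 5 in each case, without 7H replicate 3 it was 3, and without 7H replicate 2, 7W replicate 1 or 7W replicate 3 it was 2. The median over members stayed between -0.26 and -0.16 when each mouse was left out in turn. Wild-type replicate 3 was the highest of the 10 mice in 50 of the 79 members and wild-type replicate 1 in 14, whereas 7H replicate 2 was the lowest in 24.

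**Figure D1:**
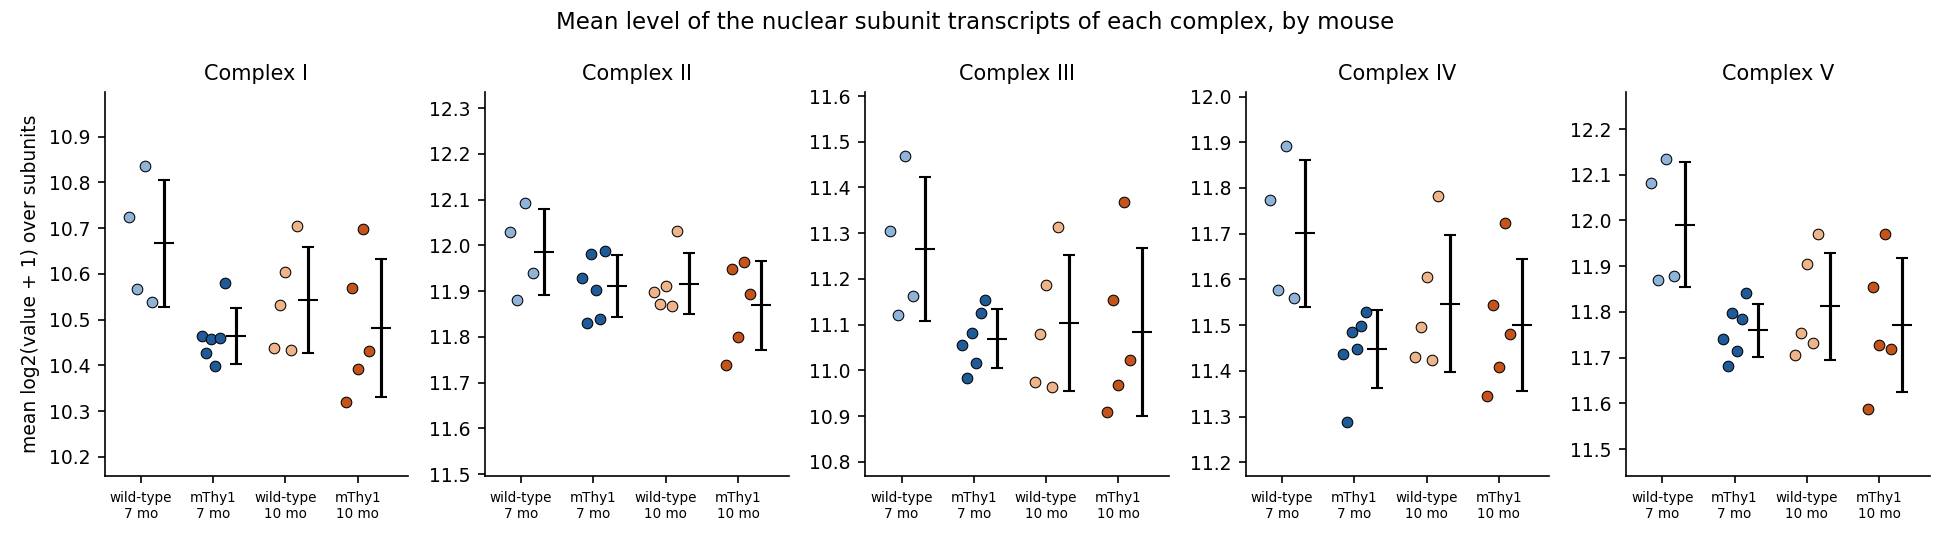
Mean log2(value + 1) of the standard subunits of each complex (vertical axes, each spanning the same range) in each mouse, by genotype and age (horizontal axis); bars are mean ± SD. At 7 months every mThy1 mouse lay below every wild-type mouse in complexes IV and V but not in complexes I, II and III, and the 10-month groups overlapped throughout.

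Summed over each mouse, the members took 0.427% ± 0.0101 (SD, n = 6) of the reads in 7H and 0.486% ± 0.0288 (n = 4) in 7W. At 10 months the shares were 0.471% ± 0.0420 (n = 5) in 10H and 0.478% ± 0.0330 (n = 5) in 10W. The mean level over 73 standard subunits tested at both ages was 13.4% lower in 7H than in 7W and 3.37% lower in 10H than in 10W. By complex, the difference at 7 months was -16.1% for complex IV, -14.8% for complex V, -13.1% for complex I, -12.7% for complex III and -4.99% for complex II. At 10 months these values lay between -4.12% for complex I and -1.34% for complex III.

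With all 20 mice scaled together, 7W had the highest group mean for 46 of the 73 standard subunits and 10W for 22, while 7H had the lowest for 68. The mean level on this scale was 11.17 in 7W, 11.13 in 10W, 11.08 in 10H and 10.96 in 7H. The SD between mice was 0.141, 0.121, 0.149 and 0.0570 in the same order, so 7W, 10W and 10H lay within their spread of one another, while 7H was below 7W by more than either SD although the highest 7H mouse reached the lowest 7W mouse. The age difference in this order was not tested.

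Complex I, which oxidises NADH, had 36 members tested at 7 months, with 35 lower in 7H and a median log2 fold change of -0.19. The 7 nuclear core subunits, which carry the flavin and the iron-sulfur clusters, had a median of -0.11 and the 29 tested accessory subunits, which surround the core, a median of -0.22. Core and accessory genes were not matched for transcript length. Ndufa7, an accessory subunit gene on chromosome 17 (33824572-33838317, plus strand), was the only complex I call. Its normalised read count had a lowest, median and highest value of 768, 917 and 1005 in 7H, and was 1308, 1094, 1757 and 1071 in 7W replicates 1 to 4. All 6 mThy1 mice lay below the 4 wild-type mice, of which replicate 3 was far above the others. The log2 fold change was -0.50 ± 0.13 (SE), with a limma adjusted p of 0.0351. At 10 months the counts were 923, 1056, 1027, 1418 and 1105 in 10H and 914, 1084, 1081, 925 and 1375 in 10W, which overlapped.

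The next largest difference of complex I at 7 months was in Ndufb2, an accessory subunit of the membrane arm, with 328 ± 38.5 (SD, n = 6) against 426 ± 38.4 (n = 4) and an adjusted p of 0.112 by limma. Ndufs1, the largest iron-sulfur subunit, was the 1 complex I member above 0. Its level was 3396 ± 309 in 7H and 3311 ± 179 in 7W, a difference within the spread between mice. At 10 months 26 of 36 members were below 0 with a median of -0.06. Ndufab1, the mitochondrial acyl carrier protein, and Ndufs7, a core iron-sulfur subunit, then had the largest differences, at -0.20 and -0.19, with limma adjusted p-values of 0.191 and 0.3. Per kilobase of transcript the most abundant complex I name was Ndufa4, at 5196 normalised reads in 7W, and the least abundant one above 0 was its hypoxia-linked paralog Ndufa4l2, at 5.22.

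Complex II, succinate dehydrogenase, is the one complex with all subunits encoded in the nucleus and also belongs to the citric acid cycle. Its 4 genes had a median log2 fold change of -0.11 at 7 months and -0.04 at 10 months, and none passed an adjusted p of 0.05 by limma at either age. Sdhb, the iron-sulfur subunit, had a lowest, median and highest count of 2418, 2660 and 2852 in 7H and counts of 2552, 2252, 2670 and 2469 in 7W. The 2 groups overlapped, and the log2 fold change was 0.10 ± 0.075. At 10 months Sdhb overlapped too, with 2102, 2500, 2326, 2809 and 2485 in 10H and 2438, 2495, 2534, 2298 and 2674 in 10W. Sdha, the flavoprotein and the most abundant gene of complex II per kilobase, was at 11015 ± 509 in 7H and 11554 ± 371 in 7W. The membrane anchors Sdhd and Sdhc had the largest differences, at -0.18 and -0.15 at 7 months and at -0.05 and -0.11 at 10 months. Sdhc was the least abundant per kilobase.

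In complex III, the cytochrome bc1 complex, 8 of 8 members were lower in 7H, with a median of -0.21 and no call by limma, although 4 had an unadjusted p under 0.05. Uqcr10 and Uqcrh, both small subunits, had the largest differences. Uqcrh, the hinge protein that helps cytochrome c to bind, was also the most abundant per kilobase, and its counts were 5402 ± 614 in 7H and 6877 ± 906 in 7W, a log2 fold change of -0.35 with a limma adjusted p of 0.0589. Uqcr10 was at 984 ± 134 against 1258 ± 186, with a limma adjusted p of 0.0945. The groups of Uqcr11, another small subunit, did not overlap, at 724 to 875 in 7H and 880 to 1187 in 7W. The large core proteins Uqcrc1 and Uqcrc2 had log2 fold changes of -0.03 each, and the Rieske iron-sulfur protein Uqcrfs1 had -0.11. Transcript length was not matched between these and the small subunits. At 10 months Uqcrb and Uqcrh differed most, at -0.12 and 0.08. Uqcrq was the least abundant per kilobase.

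Complex IV, cytochrome c oxidase, held 4 of the 8 calls. The nuclear subunits of this complex surround a catalytic core made in the mitochondrion and regulate it, and the rule also included Cox7a2l, which joins complexes III and IV into supercomplexes and is known to differ in its protein between inbred mouse strains. Which Cox7a2l allele each mouse carried was not tested. Of 14 members tested at 7 months 12 were lower in 7H, with a median log2 fold change of -0.26, and 10 had an unadjusted p under 0.05. All 10 standard subunits were lower, at -0.11 for Cox5a to -0.33 for Cox6c.

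Cox7a2l lies on chromosome 17 (83501918-83517330, minus strand). Its counts in 7H were 9791, 8743, 9391, 9112, 9647 and 10223, and in 7W they were 13632, 12831, 15472 and 11889. Every mThy1 mouse was below every wild-type mouse, with no value between 10223 and 11889. The log2 fold change was -0.50 ± 0.078, a level 29.3% lower, and the limma adjusted p was 0.00248, the smallest among the members. Its counts at 10 months were 9904, 11022, 9881, 13122 and 10935 in 10H and 9010, 8952, 10470, 9852 and 12027 in 10W. The groups overlapped, and the log2 fold change of 0.13 ± 0.095 did not pass (limma adjusted p = 0.458).

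Cox4i1, the common isoform of the largest nuclear subunit and the most abundant complex IV gene per kilobase, had a lowest, median and highest count of 7429, 7940 and 8319 in 7H and counts of 9424, 9449, 11651 and 8646 in 7W. Its log2 fold change was -0.30 ± 0.079 (limma adjusted p = 0.0385). Cox6c, a single-span membrane subunit, was at 2845 ± 289 against 3564 ± 225 (-0.33, limma adjusted p = 0.0374). For Cox7a2, the common isoform of subunit VIIa, the means were 1996 ± 103 and 2481 ± 274 (-0.31, limma adjusted p = 0.0407). The 2 genotypes did not overlap at 7 months in any of these 3 genes, and overlapped in all 3 at 10 months, with log2 fold changes of 0.05, -0.04 and -0.07. At 10 months Cox5a, a matrix-side subunit, had the second largest difference of complex IV at -0.22, with an unadjusted p of 0.0203 and a limma adjusted p of 0.13.

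The tissue-restricted isoforms of complex IV were scarce. Cox6a2, the heart and muscle form of subunit VIa, had 123 ± 49.3 normalised reads in 7H and 71.3 ± 15.0 in 7W, against 3120 ± 152 and 3753 ± 545 for the common form Cox6a1. Its log2 fold change of 0.69 ± 0.32 was opposite in sign to that of Cox6a1 (-0.26), but neither passed (limma adjusted p = 0.221 and 0.106). Cox6b2, the testis form of subunit VIb, was at 61.5 ± 16 in 7H and 86.5 ± 14.7 in 7W, then at 64.1 ± 12.6 in 10H and 44.0 ± 11.9 in 10W. Its log2 fold change was -0.51 at 7 months and 0.55 at 10 months, with limma adjusted p-values of 0.291 and 0.229. The common form Cox6b1 had 4781 ± 481 in 7H and 5689 ± 824 in 7W. Cox7a1, the muscle form of subunit VIIa, reached 21.2 at most and was tested only at 7 months (0.37) and in the comparison of ages. Cox4i2 ranged from 0 to 23.3 and Cox8b from 0 to 9.85, and neither was tested within an age. Cox8b was the least abundant complex IV gene per kilobase among those above 0. Cox7b2 and Cox8c, whose common forms Cox7b and Cox8a were at 2453 ± 172 and 2327 ± 138 in 7H, were listed at 0 in all 20 mice. Ndufa4l2 (0 to 13.1) was not tested, and Ndufs5, a complex I accessory gene, was also listed at 0 in every mouse, so 6 members were untested at 7 months and 7 at 10 months.

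**Figure D2:**
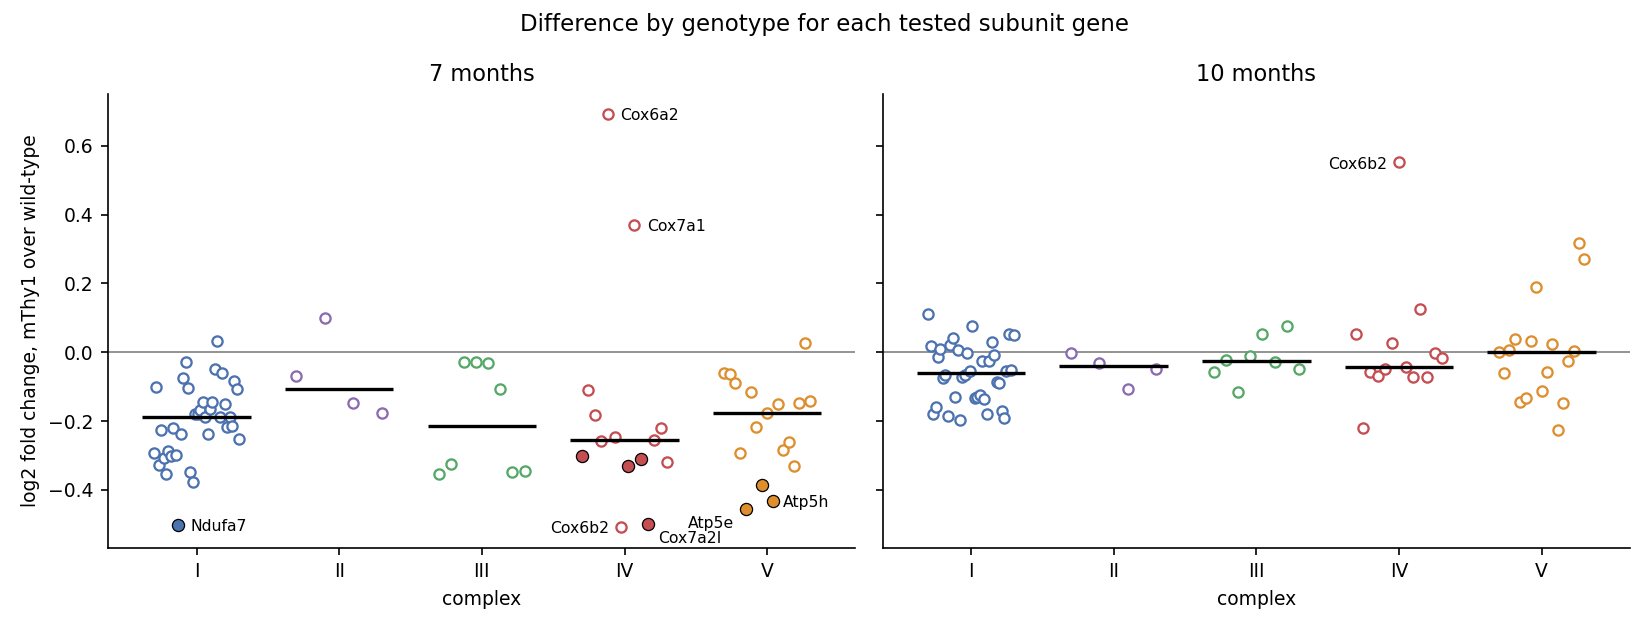
Log2 fold change, mThy1 over wild-type, of each tested member (points) by complex (horizontal axis) at 7 and 10 months; filled points passed an adjusted p of 0.05 and bars are medians. At 7 months 74 of 79 points lie below 0 and 8 are filled, and at 10 months none of the 78 is filled.

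Complex V had 3 calls at 7 months among 17 members, 16 of which were lower in 7H, with a median of -0.18. The enzyme has a soluble F1 part, which makes ATP, and a membrane Fo part with a rotor ring and a peripheral stalk. The 10 Fo and stalk genes had a median of -0.24 and the 5 F1 genes a median of -0.09, without a match for transcript length. Atp5h, subunit d of the peripheral stalk, lies on chromosome 11 (115415689-115419962, minus strand). Its lowest, median and highest counts in 7H were 3990, 4622 and 5499, and its counts in 7W were 6196, 6662, 6769 and 5665. The groups did not overlap, and the log2 fold change was -0.43 ± 0.087 with a limma adjusted p of 0.00962. At 10 months, counts of 4230, 5850, 4877, 5896 and 4461 in 10H and 4913, 5129, 5628, 4658 and 5873 in 10W overlapped. Atp5e, the epsilon subunit of the central stalk, was called at 2679 ± 310 against 3715 ± 771, a log2 fold change of -0.46 with a limma adjusted p of 0.0496. Its lowest wild-type mouse, at 2959, lay below the highest mThy1 mouse, at 3106.

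The catalytic F1 genes differed by less than the spread between mice. Atp5a1 and Atp5b, the α and β subunits that form the catalytic hexamer, had log2 fold changes of -0.06 each at 7 months, with 18976 ± 894 and 17185 ± 1194 in 7H against 19809 ± 1620 and 17949 ± 1214 in 7W. Per kilobase, Atp5h led complex V in 7W and Atp5b led it in the other groups. The genes with the largest differences at 10 months were Atp5s and Atp5sl, at 0.32 and 0.27. Both are members by symbol only and their products are not ATP synthase subunits. Atp5s was the least abundant gene of the complex V names per kilobase. At 10 months 9 of 17 complex V members were below 0, with a median of -0.0003.

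Subunit c, which forms the rotor ring, is made from 3 genes whose transit peptides differ and whose mature protein is the same. Their spliced coding ends, the last 228 bases including the stop codon in the GENCODE transcripts of GRCm38, are shown because reads from them must be told apart to measure each gene. Capitals mark positions at which the 3 genes are not all alike.
Atp5g1 coding end, spliced from chr11:96073104-96073635, minus strand: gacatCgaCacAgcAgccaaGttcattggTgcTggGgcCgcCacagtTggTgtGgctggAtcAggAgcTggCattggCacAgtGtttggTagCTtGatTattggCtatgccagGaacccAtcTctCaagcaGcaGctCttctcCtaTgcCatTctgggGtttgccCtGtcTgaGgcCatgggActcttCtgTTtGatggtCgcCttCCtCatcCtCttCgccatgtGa
Atp5g2 coding end, spliced from chr15:102663014-102665166, minus strand: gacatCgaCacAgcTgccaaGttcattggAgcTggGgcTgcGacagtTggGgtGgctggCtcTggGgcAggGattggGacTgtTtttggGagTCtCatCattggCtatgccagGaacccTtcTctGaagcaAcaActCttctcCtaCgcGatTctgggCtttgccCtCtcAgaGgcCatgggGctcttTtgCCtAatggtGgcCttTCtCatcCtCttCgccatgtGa
Atp5g3 coding end, spliced from chr2:73908593-73909296, minus strand: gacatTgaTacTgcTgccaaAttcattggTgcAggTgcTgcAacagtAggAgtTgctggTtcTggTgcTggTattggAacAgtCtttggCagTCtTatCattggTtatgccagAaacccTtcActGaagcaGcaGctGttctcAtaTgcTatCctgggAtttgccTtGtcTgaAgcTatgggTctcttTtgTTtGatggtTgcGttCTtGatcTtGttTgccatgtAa

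Atp5g1 and Atp5g2 were identical at 194 of these 228 bases (85.1%), Atp5g1 and Atp5g3 at 182 (79.8%), and Atp5g2 and Atp5g3 at 179 (78.5%). None of the differing codons changed the encoded amino acid, and the longest run without a difference between any pair was 21 bases, which is much shorter than a read. Untranslated regions and other copies of these genes in the genome were not compared. Atp5g2 lies on chromosome 15 (102662864-102672352, minus strand) and was the most abundant of the 3. Its counts in 7H were 2983, 2577, 3013, 2654, 2591 and 3107, and those in 7W were 3779, 3077, 4427 and 3537. The lowest wild-type mouse lay just under the highest mThy1 mouse, and the log2 fold change was -0.39 ± 0.097 with a limma adjusted p of 0.0324. At 10 months the counts were 2742, 3107, 3257, 3811 and 3218 in 10H and 2456, 2854, 2856, 2796 and 3167 in 10W. The order of the genotypes was thus opposite at the 2 ages, but the 10-month log2 fold change of 0.19 ± 0.089 did not pass (limma adjusted p = 0.216). Atp5g1 was at 787 ± 76.6 in 7H and 917 ± 113 in 7W, and Atp5g3 at 2214 ± 178 and 2506 ± 268. Their log2 fold changes of -0.22 and -0.18 at 7 months, and of 0.03 and -0.11 at 10 months, did not pass.

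At 10 months the members as a whole differed little by genotype. Of 78 tested, 54 were lower in 10H, against 50.5% of all 13627 tested genes, and the median log2 fold change was -0.05. The split was unstable, since 40 of 78 were lower once each mouse was recentred on the median of its tested genes. By limma 0 members passed an adjusted p of 0.05, against 7.67% of all tested genes, and edgeR and DESeq2 also called 0. At an unadjusted p under 0.05 there were 4 members, against 23.5% of all genes. These were Cox5a, Atp5j2 and Ndufab1, which had lower means in 10H, and Atp5sl, which had a higher mean. The groups overlapped in every member, while every mThy1 mouse lay below every wild-type mouse in 3.49% of tested genes and above in 3.78%. The mice of both groups were widely spread, with 10H replicate 1 lowest in 35 of the 78 members, 10H replicate 4 highest in 32 and 10W replicate 5 highest in 28.

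**Figure D3:**
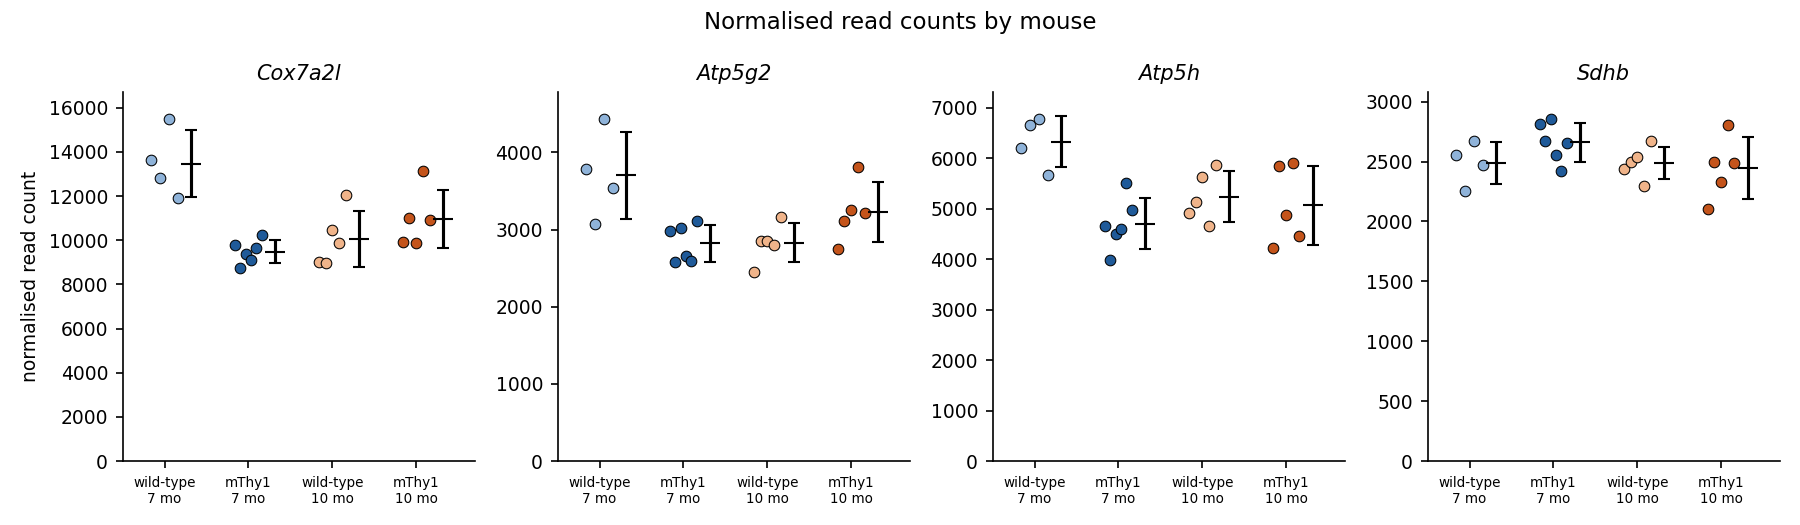
Normalised read counts (vertical axes from 0) of Cox7a2l, Atp5g2, Atp5h and Sdhb in each mouse, by genotype and age; bars are mean ± SD. Cox7a2l and Atp5h separate the genotypes without overlap at 7 months, Sdhb does not, and all 4 overlap at 10 months.

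Whether the genotype difference itself changed with age was tested in one fit of the 4 groups, as the 10-month difference minus the 7-month difference. This contrast uses the same mice as the within-age comparisons and is not independent of them. Of 80 members tested, 10 were below 0, against 49.9% of 14457 tested genes, and the median was 0.15. Cox7a2l (0.63 ± 0.13, limma adjusted p = 0.00539) and Atp5g2 (0.57 ± 0.14, limma adjusted p = 0.0136) passed, both above 0. Over all tested genes 6.36% passed in either direction and 3.74% passed above 0. At an unadjusted p under 0.05 there were 12 members, against 21.9% of all genes. For both genes the mean of 7W was the highest of the 4 groups, and the group means of 10H, 10W and 7H lay between 9485 and 10973 for Cox7a2l and between 2821 and 3227 for Atp5g2, on scales set separately for each age. Ndufa7 (0.54) and Cox6b2 (1.06), with limma adjusted p-values of 0.0868 and 0.0782, did not pass. Without 10W replicate 5, 4 members passed.

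Differences at 7 months were larger for short transcripts. Over the 26 members with a transcript of at most 600 bases the median log2 fold change was -0.30, and 25 were lower in 7H. It was -0.19 over 27 members of 600 to 1000 bases, -0.11 over 20 of 1000 to 2000 bases and -0.06 over the 6 longer ones. All tested genes showed the same order with smaller values, at -0.22 over 400 genes, -0.12 over 969, -0.03 over 3349 and 0.03 over 9050. They include the members and the cytoplasmic ribosomal protein genes, so they are not a separate set. Spearman's rho between length and log2 fold change was 0.53 over the 79 members and 0.13 over all 13768 tested genes with a length. Pearson's correlation with log2 length was 0.33 and 0.04. Both are given as a description since genes share libraries. At 10 months the members' medians in the same order of length were -0.03, -0.06, -0.02 and -0.0007. The F1 genes Atp5a1, Atp5b, Atp5c1, Atp5d and Atp5e had lengths of 2471, 1916, 1166, 931 and 421 bases. Their log2 fold changes at 7 months were -0.06, -0.06, -0.09, -0.29 and -0.46 in the same order. Members of other complexes departed from such an order, among them Uqcrb (535 bases, -0.03), Uqcrq (1521 bases, -0.34) and Cox7a2l (1076 bases, -0.50). Length was approximated by the shortest RefSeq-matched transcript of each gene. The parts of length and of structural role in the genotype difference were not tested.

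**Figure D4:**
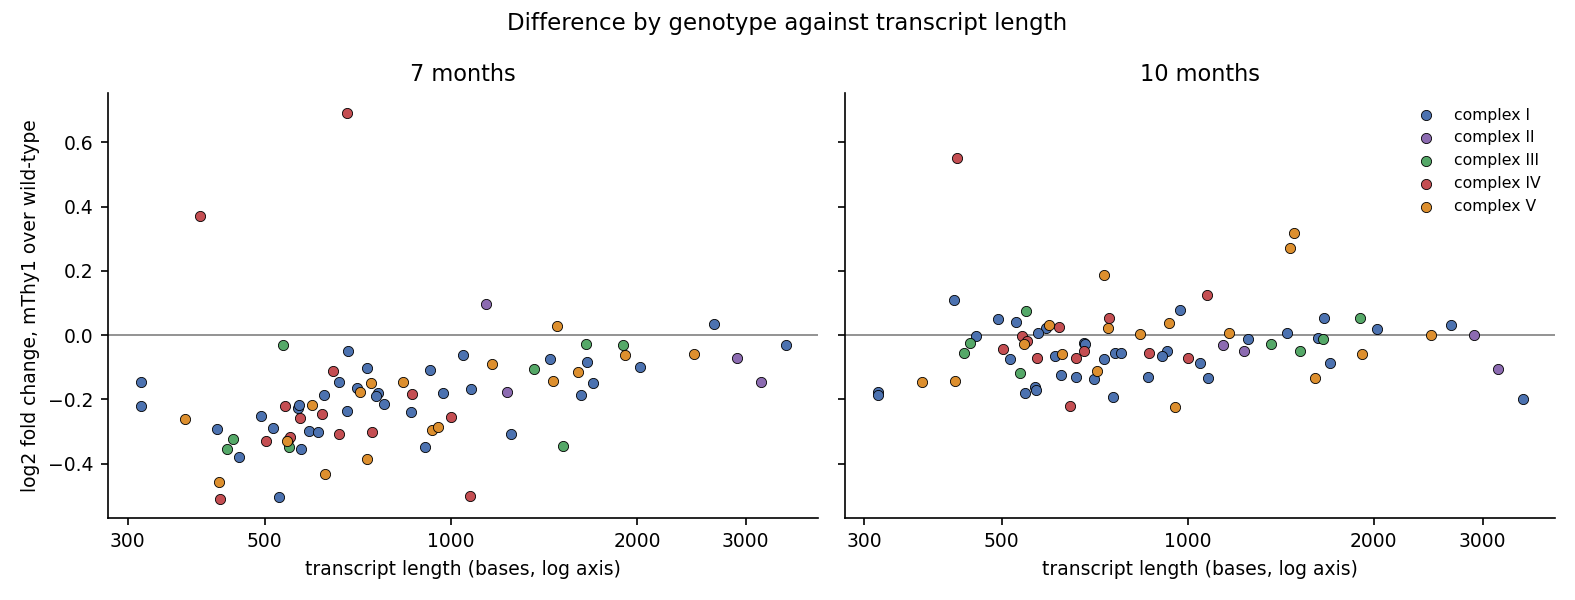
Log2 fold change, mThy1 over wild-type, against transcript length in bases (log axis) for each tested member at 7 and 10 months, coloured by complex. At 7 months the median falls from -0.06 above 2000 bases to -0.30 at up to 600 bases, and at 10 months no such order is seen.

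Other gene lists give the setting of these differences. Cytoplasmic ribosomal protein genes, which are also short and abundant, had 67 of 82 tested genes called lower in 7H and 1 called higher, with a median of -0.48, and took 3.78% ± 0.141 of reads in 7H against 5.20% ± 0.332 in 7W. At 10 months 1 of 82, Rpl21, was called higher. Mitochondrial ribosomal protein genes had a median of -0.06 at 7 months, with Mrpl23 and Mrpl30 called lower among 77, and of -0.09 at 10 months, with Mrpl36 called lower. None of 49 proteasome genes was called by limma at either age, with 7 and 6 at an unadjusted p under 0.05 and medians of -0.04 and -0.08. In the comparison of ages 56 of 82 cytoplasmic ribosomal protein genes were called above 0, with a median of 0.54. The same held for 1 of 77 mitochondrial ribosomal protein genes and 0 of 49 proteasome genes.

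Of other electron transport and ATP synthase components that the symbol rule left out, 13 were tested. They include cytochrome c and its heme-bearing partner, a subunit of complex III. Atpif1, the inhibitor of ATP synthase, was called lower at 7 months (2995 ± 259 against 3961 ± 236, limma adjusted p = 0.0073), and Coq10b, a ubiquinone-binding protein, was called lower at 10 months. Among 45 tested assembly factors, Uqcc2, for complex III, was called lower at 7 months, whereas Cox11 and Sco1, which deliver copper to complex IV, were called higher, at 510 ± 65.0 against 348 ± 35.4 and at 876 ± 88.6 against 681 ± 15.7. Atpaf1, for F1, and Timmdc1, for complex I, were called lower at 10 months, and Timmdc1 was also called in the comparison of ages. The assembly factors divided evenly at 7 months, with 23 lower and 22 higher. Citric acid cycle and pyruvate dehydrogenase genes had a median of -0.04 at 7 months with 0 of 18 called by limma and 1 at an unadjusted p under 0.05. At 10 months Dlat, a core subunit of pyruvate dehydrogenase, was called higher. Of 18 genes for mitochondrial biogenesis 14 were higher at 7 months, and 0 were called by limma at either age, with 1 and 0 at an unadjusted p under 0.05.

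Markers of several other cell types differed by genotype at 7 months, mostly in the same direction as the members. Of 10 neuronal markers 9 were lower in 7H and 5 were called lower, and their summed level was 311 to 606 in 7H and 661 to 1361 in 7W. Of 9 tested oligodendrocyte markers all were lower and 3 were called, with sums of 7901 to 10335 against 12912 to 18452. Of 10 astrocyte markers 8 were lower, and 4 were called lower and 1 higher, with overlapping sums of 9818 to 12530 and 9451 to 12219. Their mean log2 level, which weights each marker alike, did not overlap, at 6.72 to 7.75 in 7H and 7.85 to 8.28 in 7W. Of 10 endothelial markers 9 were lower and 2 were called, with sums of 3562 to 5409 against 5768 to 6946. Of 5 lymphocyte markers 1 was called lower, with sums of 284 to 726 against 1055 to 1955. All 6 neutrophil and all 5 monocyte markers were lower, and 0 were called by limma or had an unadjusted p under 0.05. Neutrophil sums, the largest of the non-microglial markers, were 42272 to 426941 in 7H and 72643 to 276023 in 7W. Monocyte sums were 10725 to 41345 and 13332 to 35510. Of 7 border macrophage markers 3 were lower and 0 were called, with sums of 21714 to 36257 against 22383 to 31544. Microglial markers summed to 1986430 to 2299030 against 1919350 to 2158540, with 0 of 10 called by limma and 3 at an unadjusted p under 0.05. The members themselves summed to 209579 to 233653 in 7H and 233919 to 280199 in 7W. No neuronal, oligodendrocyte, astrocyte, endothelial or lymphocyte marker was at 0 throughout a group. The part of these cells in the members' differences was not tested.

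At 10 months, where no member was called, neuronal sums were 378 to 706 in 10H and 319 to 695 in 10W, and oligodendrocyte sums were 7721 to 11077 and 9161 to 15502. Border macrophage (4 of 7), monocyte (3 of 5), neutrophil (1 of 6) and lymphocyte (2 of 4) markers were called lower in 10H, as was 1 of 10 immediate-early genes, and 3 of 10 microglial markers and 1 of 10 astrocyte markers were called higher. None of the markers of ependymal and choroid cells or of red blood cells was called by limma at either age. At an unadjusted p under 0.05 there were 1 and 3 ependymal and choroid markers at 7 and 10 months and 0 red blood cell markers at both. Of the red blood cell markers 4 of 5, all globin genes, were at 0 in every mouse. In the comparison of ages 4 of 10 neuronal and 5 of 10 astrocyte markers were called above 0, against 0 of 9 oligodendrocyte and 0 of 10 endothelial markers.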

How the data were processed

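Poly(A) RNA of bead-selected microglia from 20 mice was sequenced in a single run. Per the submitters' processing notes, the authors used Trim Galore 0.6.7, HISAT2 2.2.1, featureCounts and DESeq2 1.44.0 with the mm10 build; strand and the treatment of reads shared with near-identical copies are not given in the sources used here, so genes with close copies or overlapping genes are uncertain. The deposited signal values are gene counts divided by a DESeq2 size factor per mouse, computed separately over the 10 mice of each age. Whole reads were recovered for 100% of positive values in every mouse (tolerance 0.01), and 33404096 to 77806399 reads fell on genes.

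Values were tested with limma 3.58.1 (trend and robust, R 4.3.3) on log2(value + 1), which understates changes of low genes, with Benjamini-Hochberg adjustment at 0.05. Genes entered a test if their value reached 10 in as many mice as the smaller group holds (4 at 7 months, 5 at 10 months, 4 of 20 mice for the comparison of ages). The latter was one fit of the 4 groups. edgeR 4.0.16 and DESeq2 1.42.0 on the recovered reads were alternatives, beside other pseudocounts, no filter, recentring, one fit of all groups, a replicate block and leaving out each mouse. The limma fit within each age was also run on simulated counts with the same dispersion for every gene and independent mice. In these data single mice were high or low across many members, so that run does not show how well the fit is calibrated here. P-values judge a difference of group means against the spread between mice, with that spread moderated across genes. Positions and lengths came from GENCODE vM21 (GRCm38) and promoters from RefSeq. Members with a call, the 2 largest differences per complex and age, the extremes of level per length, isoform pairs, the subunit c genes and untested members were named, and from other lists at most 4 called genes per list and age. The members and lists were chosen with earlier results of these data known. Mitochondrially encoded genes were not analysed here. The values of 1 member are not reported here.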

Additional observations from a re-analysis of the deposited data

Results flagged for a closer look

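The genotype difference of 2 of 80 tested members differed between the ages by a test of the difference itself. The share over all tested genes was higher, at 6.36% in either direction and 3.74% above 0. For Cox7a2l the 10-month log2 fold change minus the 7-month one was 0.63 (limma adjusted p = 0.00539), and for Atp5g2 it was 0.57 (limma adjusted p = 0.0136). Both were called in all 27 alternative settings, with adjusted p-values of at most 0.0167 and 0.0345.

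In 2 of 60 groups of samples tested for a sample far from the others, the highest mouse stood apart. For complex I in 7H this was replicate 6, with a mean log2 level of 10.58 against 10.46 in the next mouse. For complex II in 10W it was replicate 5, with 12.03 against 11.91. Chance flags about 1 in 20 groups.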

How the results depend on the processing

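Of the 8 calls at 7 months, DESeq2 gave 15 (8 shared) and the replicate block, whose numbers do not pair the mice (correlations of -0.134 to 0.0995), gave 5 (4 shared). Leaving out each mouse gave 2 to 11 calls. The construction of these alternatives, with fewer mice or another spread model, differs, and the cause was not tested. Over all genes the main calls numbered 684 at 7 months, 1045 at 10 months and 920 in the comparison of ages, against 414, 916 and 482 with the replicate block and 1166, 1697 and 1319 by DESeq2. The median over members at 7 months was -0.26 to -0.16 with a mouse left out and -0.24 to -0.19 otherwise. At 10 months the number of calls was 0 in all 19 alternatives, and the median was -0.10 to -0.0027 with a mouse left out. In the comparison of ages leaving out each mouse gave 2 to 4 calls. By complex the 7-month medians kept their sign in all 18 settings, while at 10 months those of complexes II to V crossed 0. No called member changed sign in any alternative. At 7 months 6 members did not reach the filter, 3 of them listed at 0 in all 20 mice, for which the cause was not tested.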
